A study of Danio rerio with 4 samples.

Results

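Compact high-score regions are stretches of the zebrafish (Danio rerio) genome of at most 5000 bp in which 5-hydroxymethylcytosine (5hmC) scored high in both heart captures of the series. They were found by joining peaks of the 2 deposited lists that overlapped by at least 1 bp, keeping joined regions to which both lists contributed, and asking for a highest peak score of 500 or more in each list. Of 110315 joined regions, 108947 were at most 5000 bp wide, and 1837 of these (1.69%) passed the score threshold. The other 107110 regions of at most 5000 bp, called the other compact regions here, are the comparison throughout. The score and the width limit chose the members, so their scores are given as a description. The score is the authors' own peak value on a scale that neither a header nor a label states, so a ratio of scores cannot be read as a ratio of 5hmC.

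The DNA was that of dissected hearts of wild-type embryos, taken 48 hours post fertilisation. The labels name AB as the strain background, while the growth protocol describes crosses of the AB and TU lines. Each pool held at least 40 hearts, no treatment was applied, and 2 captures and 2 uncaptured inputs were labelled, numbered 1 and 2. The peak lists of the 2 captures were used, and values of the inputs were not analysed here. The lists are labelled as separate samples of 1 condition, and nothing says that the pools came from separate clutches, so the spread between them may be technical. A whole heart holds muscle, endocardial and other cells, and a peak does not tell in which of them the mark lay. The tissue was taken from the labels, since peak lists hold no marker levels.

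5hmC is made when TET dioxygenases oxidise 5-methylcytosine, the methylated base found mostly at CpG sites in vertebrates. It is an intermediate on the way to demethylation and also persists as a mark of its own. In vertebrate tissues it is commonly found over the bodies of active genes and at enhancers, and it is scarce in much of the repeat-rich heterochromatin. The capture used here transfers an azide-bearing glucose to 5hmC and not to 5-methylcytosine, and the glucose is then coupled to biotin for pull-down. A peak therefore marks a stretch with many captured fragments, which were sheared to a mean of 250 bp, and not a single base.

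No test between conditions was possible, because there was 1 condition, and regions of the same 2 libraries are not replicates. Shares carry Wilson 95% intervals, which treat regions as independent and cover counting error only. The lists held 145501 peaks in replicate 1 and 145893 in replicate 2, and the lowest score was 50.0 in both. A score of 500 or more was held by 3555 peaks of replicate 1 and 4474 of replicate 2. How many reads lie behind a peak is unknown, since no file holds counts. A genome of the files' danRer7 build was not used here, so no sequence is shown and no region is assigned to a gene.

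The members made up a larger share of bases than of regions. They covered 5.64 Mb, or 3.17% of the 177.7 Mb in all regions of at most 5000 bp. A further 559 joined regions reached 500 in both lists but were wider than 5000 bp, which is 40.9% of the 1368 regions beyond that width. Without a width limit, 2396 of 110315 regions (2.17%) passed. The width limit therefore left out a set in which high scores were common.

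Most members lay not far above the threshold. In replicate 1 the median of their highest peak score was 663.3 (quartiles 574.8 and 816.7), against 121.2 in the other compact regions. In replicate 2 it was 694.6 (quartiles 589.0 and 857.5), against 128.3 in the others. By the lower of the 2 scores, 1421 members lay from 500 to below 750, 297 from 750 to below 1000, 105 from 1000 to below 1500, and 14 at 1500 or more. Only 119 of the 1837 thus reached 1000 in both captures.

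The threshold cut through a continuous range. The 3 members closest above it had lower scores of 500.01 (chromosome 20, 43289110 to 43292438), 500.05 (chromosome 23, 25141705 to 25144387) and 500.07 (chromosome 12, 29121993 to 29125128). The 3 regions closest below it had 499.91 (chromosome 25, 38371394 to 38373997), 499.90 (chromosome 23, 19254098 to 19258396) and 499.87 (chromosome 13, 34290805 to 34292460). These regions were picked for closeness to 500 in the lower score, so their likeness in it is set by that choice. Their higher scores ran from 506.3 to 789.0.

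The threshold was met more often in replicate 2. Among regions of at most 5000 bp, 2843 (2.61%) reached 500 in replicate 1 and 3612 (3.32%) in replicate 2. Of these, 1006 did so in replicate 1 alone, where the replicate 2 scores had a median of 394.9, and 1775 in replicate 2 alone, where the replicate 1 scores had a median of 370.3. The regions that failed in 1 capture were therefore still far above the median of the other compact regions in it.

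**Figure D1:**
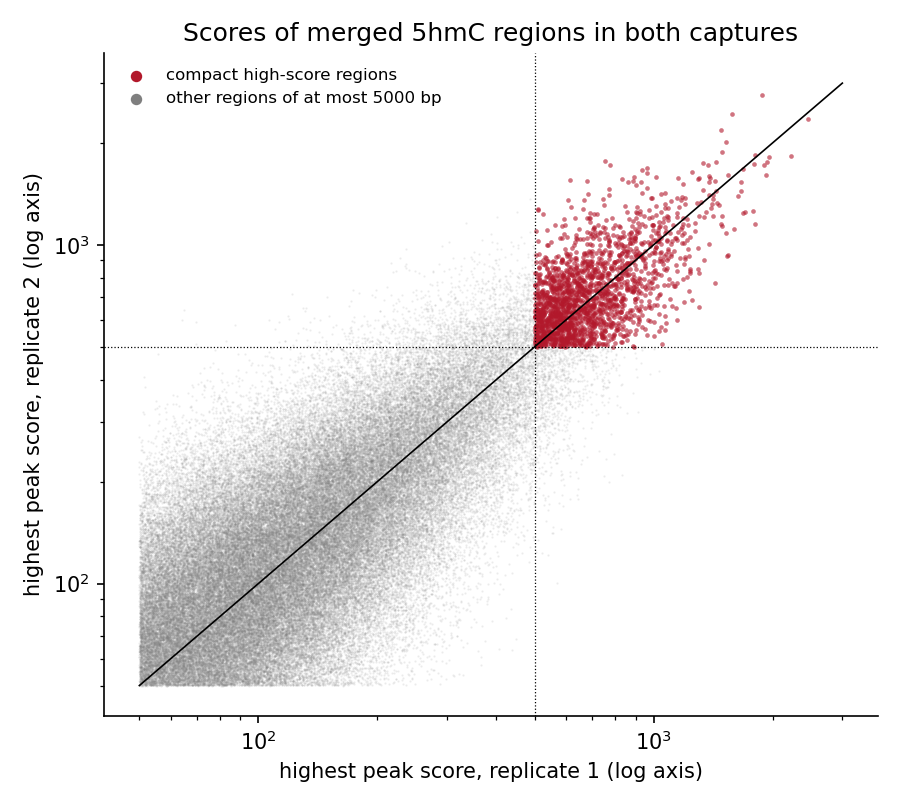
Highest peak score of each joined region of at most 5000 bp in replicate 1 (horizontal, log axis) and replicate 2 (vertical, log axis), with the 1837 compact high-score regions in red and the 107110 other compact regions in grey. The dotted lines stand at 500 and the solid line marks equal scores; the members thin out along that line towards the highest scores, and many grey points pass 500 on 1 axis alone.

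Picking regions with 1 list and reading them in the other shows what share of the picks of that list were members. Regions that reached 500 in both lists are the 1837 members themselves, and every region here had a peak in both. The shares below therefore describe the rule and are not separate support for the members. Of the 2843 regions that reached 500 in replicate 1, 64.6% (62.8 to 66.4%) also did so in replicate 2, against 1.67% (1.60 to 1.75%) of the regions below 500 in replicate 1. Of the 3612 that reached 500 in replicate 2, 50.9% (49.2 to 52.5%) also did so in replicate 1, against 0.955% (0.898 to 1.02%) of those below. The list that was not used for picking gave the lower median each time, and only the picking list had a floor of 500. The median was 579.6 in replicate 2 for regions picked by replicate 1, where it was 612.0 in the picking list. For regions picked by replicate 2 it was 504.0 in replicate 1 and 617.8 in the picking list.

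The wider picks were found again more often, and they also started further above the threshold. From the class of 1000 to below 2000 bp to that of 4000 to 5000 bp, the median picking score rose from 568.0 to 713.8 in replicate 1. In replicate 2 it rose from 570.2 to 708.9. Width and picking score were not told apart here. Among regions picked by replicate 1, 50.3% of those from 1000 to below 2000 bp reached 500 in replicate 2 (46.1 to 54.4%), 60.1% of those from 2000 to below 3000 bp, 72.6% of those from 3000 to below 4000 bp and 79.6% of those from 4000 to 5000 bp (75.7 to 83.0%). Among regions picked by replicate 2, the shares that reached 500 in replicate 1 were 39.1, 48.0, 58.8 and 59.1% over the same classes. Regions that the picking list left below 500 also passed more often when wide: in replicate 2 these shares went up along the classes from 0.700 to 18.1%.

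The scores of members agreed more closely than those of other compact regions, a result that the rule itself favours because it sets a floor in both lists. The replicate 1 score over the replicate 2 score had a median of 0.964 in members (quartiles 0.823 and 1.12) and 0.953 in the other compact regions (quartiles 0.695 and 1.30). The 2 scores lay within 1.5-fold of each other in 90.2% of members (88.8 to 91.5%) and in 61.3% of the others (61.0 to 61.6%). They were more than 2-fold apart in 17 members (0.925%), against 14.5% of the others.

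Agreement of the scores went up with the lower score well before the threshold, with no step at it. The lower score sets the steps and is also the base of the fold, so the steps themselves shape these shares. Within the step from 50 to below 75, Spearman's rho of the 2 scores was -0.33. The climb is thus a description and not a measure of how well the captures reproduce each other. The share within 1.5-fold was 51.4% from 50 to below 75, 75.1% from 200 to below 300, 84.9% from 400 to below 500, 89.3% from 500 to below 750, 91.6% from 750 to below 1000 and 98.1% from 1000 to below 1500. Among the 14 members at 1500 or more it was 92.9%. Within the members alone, Spearman's rho of the 2 scores was 0.50, against 0.64 in the others. This correlation is across regions that share 2 libraries and a truncated score range, and it carries no p-value.

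Replicate 2 scored slightly higher than replicate 1 over most of the set. Replicate 1 was the higher in 802 of 1837 members (43.7%, 41.4 to 45.9%) and in 45.8% of the other compact regions. The median ratio of replicate 1 over replicate 2 was below 1 on 23 of 25 chromosomes, between 0.914 and 1.02. The offset between the captures was thus of similar size in members and in the rest.

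The members in which the captures disagreed most show how large the spread could be. The highest ratio, 2.06, belonged to chromosome 23 (36074086 to 36077563), where replicate 1 scored 1051.9 and replicate 2 scored 510.5. Chromosome 11 (19404832 to 19408296) followed with 1302.4 and 653.3, and chromosome 5 (26076194 to 26080546) with 1142.8 and 600.8. The outermost edges nearly coincided in all 3, with a span common to both lists of 95.3 to 98.3% of the joined width. Replicate 2 cut the chromosome 23 region into 2 peaks, and replicate 1 cut the chromosome 5 region into 2. Any gap between such pieces counts as common in these values.

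In the opposite direction the gaps were wider. Chromosome 18 (17446342 to 17450417) scored 614.1 in replicate 1 and 1552.1 in replicate 2, a ratio of 0.396. Chromosome 6 (44276381 to 44280977) scored 510.3 and 1278.6, and chromosome 1 (14045468 to 14048511) scored 509.2 and 1265.9. These ratios also stood beside closely matching edges, with 94.5 to 97.8% of the bases shared.

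Members with unequal scores were somewhat wider. The 56 members in which replicate 1 was higher by over 1.5-fold had a median width of 3488 bp, and the 124 in which replicate 2 was higher by over 1.5-fold had 3294.5 bp. The 1657 members within 1.5-fold had 2954 bp. The quartiles of all 3 classes overlapped.

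The members were about 2 times as wide as the other compact regions. The joined width had a median of 2994 bp in members (quartiles 2293 and 3808 bp) and 1413 bp in the others (quartiles 1082 and 1940 bp). The same held for each list's own peaks: in replicate 1 they spanned a median of 2799 bp in members and 1240 bp in the others, and in replicate 2 a median of 2884 bp in members and 1309 bp in the others. On all 25 chromosomes the members were the wider set, with medians of 2751.5 to 3403 bp in members and 1365.5 to 1486 bp in the others. Width and score come from the same peak caller, so they are not independent measures of the mark.

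Width increased steadily with score, and the members continued a slope that began at the lowest scores. The median was 1199 bp from 50 to below 75, 1849 bp from 200 to below 300 and 2416 bp from 400 to below 500. It was 2847 bp from 500 to below 750, 3340 bp from 750 to below 1000, 3834 bp from 1000 to below 1500 and 4451 bp at 1500 or more, near the limit of 5000 bp. Among members Spearman's rho of width and the lower score was 0.30, and in the others 0.38. Seen the other way, members were 0.446% of the regions from 1000 to below 2000 bp, 3.36% of those from 2000 to below 3000 bp, 10.4% of those from 3000 to below 4000 bp and 19.7% of those from 4000 to 5000 bp.

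**Figure D2:**
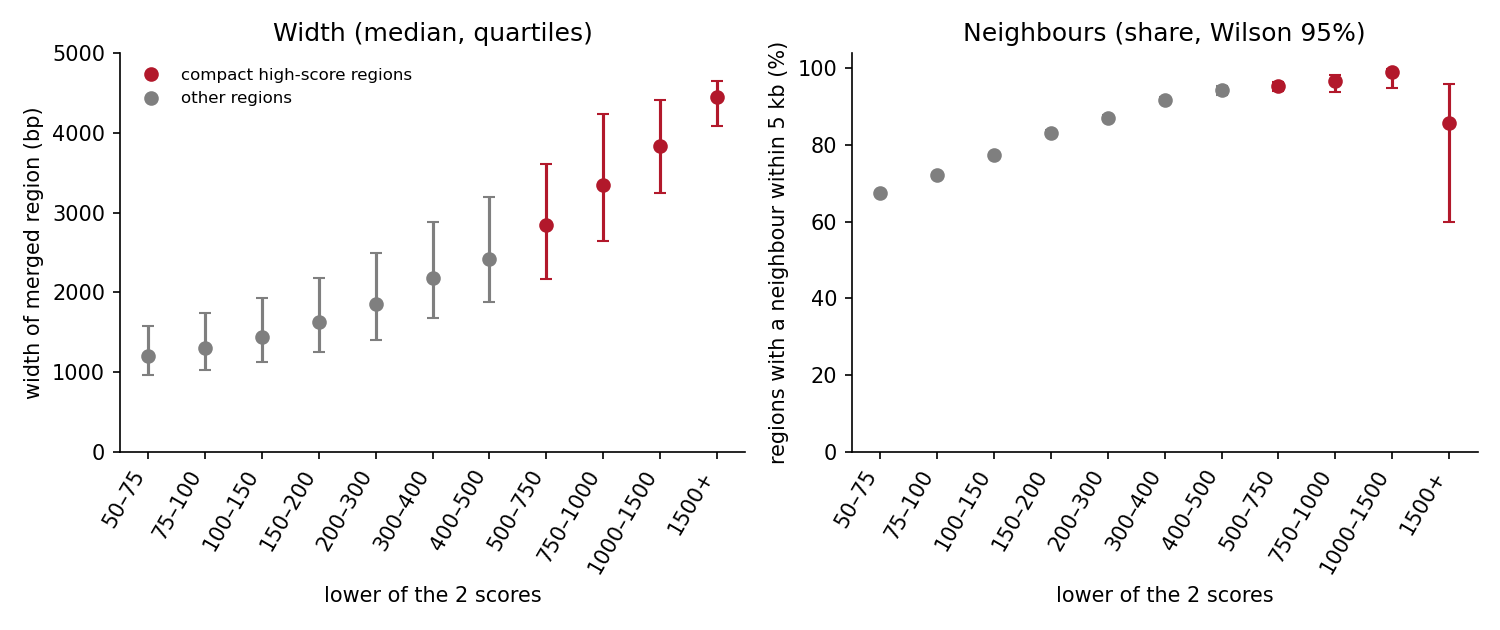
Joined regions of at most 5000 bp in steps of the lower of their 2 scores (horizontal), with members in red and other compact regions in grey. Left, median width in bp with quartiles, which climbs from 1199 bp to 4451 bp with no break at 500; right, share with another joined region within 5 kb and its Wilson 95% interval, which climbs from 67.4% and levels off above 94%, apart from the last step of 14 regions.

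Narrow members were few. At most 1500 bp was measured in 49 of the 1837, and the highest lower score among them was 703.0. The narrowest member, chromosome 24 from 1785893 to 1786798, spanned 906 bp and scored 522.5 in replicate 1 and 573.4 in replicate 2. Next came chromosome 11, 24948360 to 24949328, with 969 bp and scores of 532.8 and 573.8, and chromosome 5, 16327839 to 16328858, with 1020 bp and scores of 524.7 and 546.1. The shortest members thus sat just above the threshold, with the captures in close agreement in each.

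At the wide end the scores were higher but not extreme. The widest members were chromosome 14, 25761840 to 25766839 (5000 bp, scores 874.6 and 1050.9), chromosome 20, 38467157 to 38472153 (4997 bp, scores 713.7 and 945.2), and chromosome 23, 9964440 to 9969435 (4996 bp, scores 931.3 and 922.2). The chromosome 23 region filled its width in replicate 1 alone: its replicate 1 peak spanned 4996 bp and its replicate 2 peak 3937 bp.

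The position of peak edges is a measure that the score threshold does not set. It was compared in regions made of exactly 1 peak of each list, which were 1650 of 1837 members (89.8%) and 95.6% of the other compact regions. Starts lay a median of 60 bp apart in members (quartiles 25 and 137 bp) and 69 bp in the others (quartiles 29 and 154 bp). Ends lay 65 bp apart in members and 70 bp in the others. These offsets were small against the mean fragment length of 250 bp in both sets.

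In the median, a larger part of a member was common to both captures. Shared bases were a median of 94.1% of the bases in either list in members (quartiles 89.1 and 96.9%) and 86.5% in the others (quartiles 76.8 and 92.5%). Offsets in bp were similar in both sets and members were wider, so a like mismatch is a smaller part of a member. The median shared part also climbed with the lower score below the threshold. It was 84.0% from 50 to below 75, 92.2% from 400 to below 500 and 93.7% from 500 to below 750. Both edges lay within 200 bp of each other in 69.8% of members (67.5 to 71.9%) and in 66.6% of the others (66.3 to 66.9%), a small difference.

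Within classes of like joined width the members also had more in common, and the difference in edges was much larger than in the pooled value. Joined width runs from the outermost edges of both lists, so a mismatch of edges itself widens a region. The classes are therefore not independent of the edges, and part of the larger difference may come from them. Shared bases were a median of 94.2% in members and 86.4% in the others from 1000 to below 2000 bp, and 95.4% in members and 80.2% in the others from 4000 to 5000 bp. From 1000 to below 2000 bp both edges matched within 200 bp in 87.1% of members and 67.8% of the others. From 2000 to below 3000 bp the shares were 76.2% in members and 41.5% in the others. From 3000 to below 4000 bp they were 57.7% in members and 28.6% in the others, and from 4000 to 5000 bp 57.6% in members and 27.6% in the others. The Wilson intervals of the 2 sets did not overlap in any of these 4 classes. Edges matched less often in wide regions than in narrow ones, in members as in the others, and members were the wider set.

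Wide members were also less often cut into pieces, although joining several peaks itself widens a region, so the classes are not independent of this measure. From 4000 to 5000 bp, 72.2% of members and 47.3% of the other compact regions were 1 peak in each list. From 3000 to below 4000 bp the shares were 87.1% in members and 68.7% in the others. Pooled over widths the order was the opposite, as given above, since the others were mostly narrow.

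**Figure D3:**
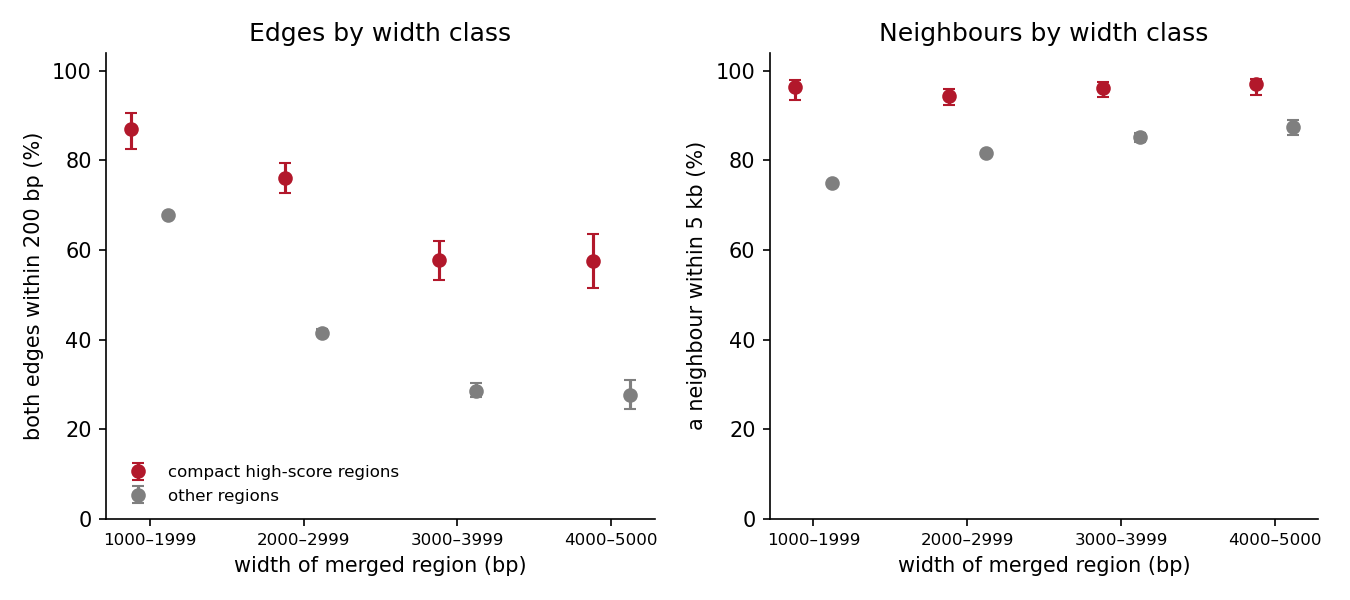
Members (red, left of each pair) and other compact regions (grey) in 4 classes of joined width in bp, with Wilson 95% intervals. Left, share of regions of 1 peak in each list whose starts and ends both lay within 200 bp between the captures; right, share with another joined region within 5 kb; members lie above the others in each class of both panels.

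Nearly all members had company. Another joined region of any width lay within 5 kb of the nearest edge in 1759 of 1837 members (95.8%, 94.7 to 96.6%) and in 75.8% of the other compact regions (75.5 to 76.0%). Members had 2.63 such neighbours on average and the others 1.54. At least 3 neighbours were found around 55.7% of members (53.4 to 57.9%) and 22.3% of the others (22.1 to 22.6%). Distances run from the edges, so the stretch searched was equally long for wide and narrow regions.

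The neighbours of members were close and on both sides. The nearest lay a median of 713 bp away from members (quartiles 248 and 1453 bp) and 1863 bp away from the others (quartiles 764 and 4832 bp). Neighbours on both sides flanked 73.5% of members (71.5 to 75.5%) and 38.9% of the others (38.6 to 39.2%). A gap of over 20 kb to the nearest region was found for 3 members, against 4.49% of the others.

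**Figure D4:**
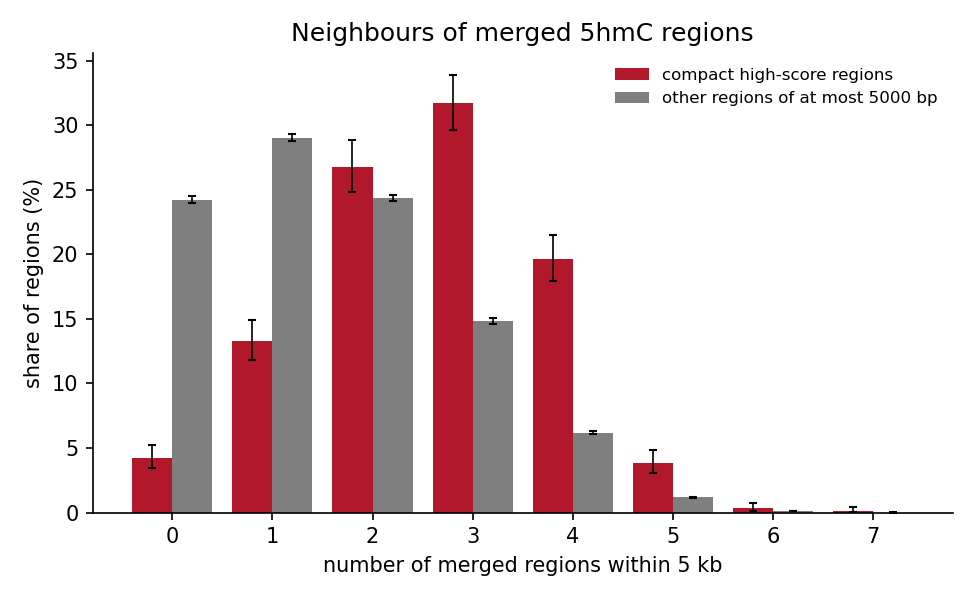
Share of regions (vertical, %) with 0 to 7 other joined regions within 5 kb (horizontal), for members in red and other compact regions in grey, with Wilson 95% intervals. Members peak at 3 neighbours (31.7%) and the others at 1 (29.1%), and 4.25% of members had none, against 24.2% of the others.

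The strongest neighbour also scored higher beside members, which had more neighbours to take it from (2.63 on average, against 1.54 for the others). A larger number of neighbours itself raises the strongest score and makes a member or a wide region among them more likely. Scores were not compared at like numbers of neighbours, so this difference is not separate from that in number. The strongest neighbour had a median lower score of 321.8 beside members (quartiles 186.6 and 537.3) and 153.4 beside the others (quartiles 93.5 and 255.9). Another member lay within 5 kb of 371 members (20.2%, 18.4 to 22.1%) and of 3.57% of the others. A region wider than 5000 bp lay within 5 kb of 11.5% of members (10.1 to 13.0%) and 2.51% of the others. Peaks called in 1 list alone ran the other way: 37.7% of members (35.5 to 40.0%) and 47.1% of the others (46.8 to 47.4%) had such a peak within 5 kb.

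The surroundings of members were dense on a larger scale too. Between 5 and 50 kb away, members had a median of 17 joined regions (quartiles 13 and 22) and the others 11 (quartiles 6 and 16). The regions were split into 4 classes by that number. In the class with the fewest regions around, 76.1% of 92 members (66.4 to 83.6%) had a neighbour within 5 kb, against 50.0% of the others (49.5 to 50.6%). In the densest class, which held 56.3% of members and 21.9% of the others, the shares were 99.2% in members (98.5 to 99.6%) and 96.0% in the others (95.8 to 96.3%). In the second class the shares were 88.9% in members and 73.8% in the others, and in the third 95.8% in members and 87.5% in the others. Density was not fully alike within every class. The median number of regions around was 5 for members and 4 for the others in the class with the fewest, and 10 and 9 in the second. It was 14 for both in the third, and 21 for members and 20 for the others in the densest class. The difference in shares held within each of the 4 classes and was smallest where almost every region had a neighbour. It also held in each of the 4 width classes shown, and on all 25 chromosomes, where 86.9 to 100% of members and 70.5 to 81.4% of the others had a neighbour.

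The share with a neighbour, like width, changed gradually with score. It was 67.4% from 50 to below 75, 87.1% from 200 to below 300, 94.3% from 400 to below 500 and 95.4% from 500 to below 750. It was 96.6% from 750 to below 1000 and 99.0% from 1000 to below 1500. Among the 14 members at 1500 or more, 85.7% had a neighbour, a share that rests on few regions.

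Long stretches of linked regions held many of the members. Linking joined regions separated by 5 kb or less gave 671 chains longer than 50 kb. These held 861 of 1837 members (46.9%, 44.6 to 49.2%) and 12.4% of the other compact regions (12.2 to 12.6%). Width and neighbours within 5 kb both lengthen a chain, so this difference is not separate from those in width and neighbours.

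The most crowded members had 7 neighbours within 5 kb. They were on chromosome 1 (25236135 to 25240142, scores 557.3 and 528.1) and on chromosome 17 (29919301 to 29924262, scores 832.4 and 1000.9). On chromosome 7, the region at 70484371 to 70486894 had 6 and scored 606.0 and 638.4. The chromosome 17 region lay above the upper quartile of members in both lists and the chromosome 1 region below the lower quartile in both, so crowding went with high and with modest scores.

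Isolated members were the exception. The 78 without a neighbour within 5 kb lay on 22 chromosomes, were a median of 2708.5 bp wide, and had medians of 634.8 (replicate 1) and 632.8 (replicate 2) for the scores. The 1023 members with 3 or more neighbours had medians of 669.0 and 700.3 and a width of 3062 bp. The most isolated, chromosome 3 from 12455767 to 12459698, had no joined region within 107266 bp and scored 506.5 and 583.2. The next gaps were 22447 bp on chromosome 5 (67881323 to 67885980, scores 901.1 and 755.0) and 21462 bp on chromosome 10 (30007034 to 30008742, scores 573.2 and 633.5). A high score in both captures therefore did not require another joined region within 5 kb. With peaks of either list counted as neighbours, 98.9% of members had one, so many of the 78 had a peak of 1 list alone nearby.

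Members were unevenly spaced. Successive members on a chromosome lay a median of 134.5 kb apart (quartiles 17.1 and 788.4 kb), and the longest gap was 34.4 Mb. Another member lay within 20 kb of 40.2% of members and within 100 kb of 64.6%. Spacing was not computed for an equal number of other compact regions, so these values are not set against the clustering of 5hmC regions in general. The 208 gaps of at most 5 kb tied members into 131 pairs, 22 runs of 3, 7 runs of 4 and 3 runs of 5.

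The closest pairs were nearly joined. On chromosome 6, members at 11774807 to 11778803 (scores 1437.7 and 1752.8) and 11778807 to 11781986 (scores 607.8 and 763.2) were 3 bases apart. Another pair on chromosome 6, at 30545192 to 30549668 (scores 619.2 and 713.5) and 30549680 to 30553534 (scores 740.0 and 802.9), was 11 bases apart. On chromosome 11, 15 bases lay between 29192768 to 29197406 (scores 786.9 and 530.5) and 29197422 to 29199836 (scores 1190.2 and 879.1). In each pair both members favoured the same capture, and joining them would have exceeded 5000 bp.

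The 3 runs of 5 lay on chromosomes 2, 4 and 9. On chromosome 2, 37030289 to 37050471, the members had replicate 1 scores of 678.3, 1332.6, 710.0, 784.7 and 787.2, and replicate 2 scores of 505.5, 1448.0, 737.0, 839.9 and 587.4, in order along the chromosome. On chromosome 4, 16090477 to 16115409, replicate 1 gave 732.7, 1031.7, 1126.7, 668.2 and 749.7, while replicate 2 gave 1001.8, 1168.1, 958.2, 736.9 and 840.8. On chromosome 9, 34900194 to 34928492, the replicate 1 scores were 792.5, 751.8, 781.0, 1660.0 and 537.6, and the replicate 2 scores 612.3, 556.7, 864.7, 1444.9 and 807.5. The runs on chromosomes 2 and 9 each had 1 member far above the rest, the same one in both captures, and members covered 58.1 to 66.1% of the 3 stretches.

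Which capture scored higher was shared little between neighbouring members. In pairs of successive members at most 5 kb apart, the same list was the higher in 116 of 208 (55.8%, 49.0 to 62.4%), and in 474 of 966 pairs more than 100 kb apart (49.1%, 45.9 to 52.2%). For the lower scores of successive members, Spearman's rho across pairs was 0.091 at most 5 kb apart, 0.092 from 5 to 100 kb and 0.043 beyond 100 kb. The score threshold cuts these scores off from below in both members of a pair. The size of rho therefore cannot show how closely the scores of neighbouring 5hmC regions are related.

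Among members, 10 had the highest mean rank of the 2 scores. They lay on 9 chromosomes, were 3729 to 4857 bp wide, and scored between 1580.2 and 2775.3 in either list. The first was chromosome 10, 28881628 to 28886203, with 2459.7 in replicate 1 and 2343.0 in replicate 2. Chromosome 1, 4172796 to 4177597, scored 1875.0 and 2775.3, and chromosome 14, 34697014 to 34701315, scored 2227.3 and 1833.1. The 3 differed in which capture gave the higher score.

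Chromosome 22 followed at 17166894 to 17171635 (scores 1951.5 and 1811.0), then chromosome 11 at 22745524 to 22750037 (scores 1931.6 and 1757.6). Chromosome 7 held both the next, at 54010071 to 54014190 (scores 1805.7 and 1841.7) and at 48376252 to 48381108 (scores 1580.2 and 2437.2). The last 3 were chromosome 23 at 23152555 to 23157228 (scores 1898.7 and 1716.5), chromosome 5 at 69694709 to 69698437 (scores 1793.9 and 1730.7) and chromosome 2 at 37974856 to 37978591 (scores 1918.5 and 1605.9). Shared bases were 93.0 to 98.8% in all 10, which were wide, so an offset is a small part of each. Starts lay 269 and 219 bp apart in the 2 chromosome 7 regions, and ends lay 235 bp apart in the chromosome 1 region. These offsets exceed the 200 bp used above for matching edges, within which both edges of the rest lay. Of the 10, 9 were 1 peak in each list. The exception was the chromosome 23 region, which replicate 2 cut into 2 peaks.

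These 10 were set in varied surroundings. The strongest neighbour within 5 kb had a lower score of 1712.8 beside the chromosome 23 region and 1282.4 beside the chromosome 22 region. Beside the chromosome 1 region it had 115.8. The chromosome 2 region had none within 5 kb, its nearest being 6517 bp away.

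Members lay on all 25 chromosomes, in shares that differed by about 2 times at this threshold and width limit. Chromosome 7 held 163 members, 2.43% of its 6698 regions of at most 5000 bp (2.09 to 2.83%). Chromosome 13 followed with 114 members and 2.26% (1.88 to 2.70%), then chromosome 18 with 101 and 2.15% (1.78 to 2.61%). These 3 chromosomes carried 20.6% of members and 15.1% of all regions of at most 5000 bp. In each list alone the same 3 had the highest shares of peaks at 500 or more, with chromosome 7 first in both at 3.28% in replicate 1 and 3.60% in replicate 2.

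The lowest shares were on chromosome 6, with 57 members and 1.22% (0.946 to 1.58%), chromosome 16, with 61 and 1.23% (0.958 to 1.58%), and chromosome 25, with 36 and 1.26% (0.908 to 1.73%). The share on chromosome 7 was 1.99 times that on chromosome 6. The ratio of the highest to the lowest share was 3.51 with a width limit of 3000 bp, again between chromosomes 7 and 6, and 4.82 with a score threshold of 750, where chromosome 13 was highest, chromosome 25 lowest and 416 members were left. With the top 2% of each list it was 2.66, between chromosomes 7 and 25. Over the 25 chromosomes the interval included the overall share on 18, lay above it on 3 and below it on 4. Most chromosomes therefore could not be told from the overall share by counting error alone. Across chromosomes, Spearman's rho between the shares of the 2 lists was 0.89, a description over 25 points from the same 2 libraries.

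**Figure D5:**
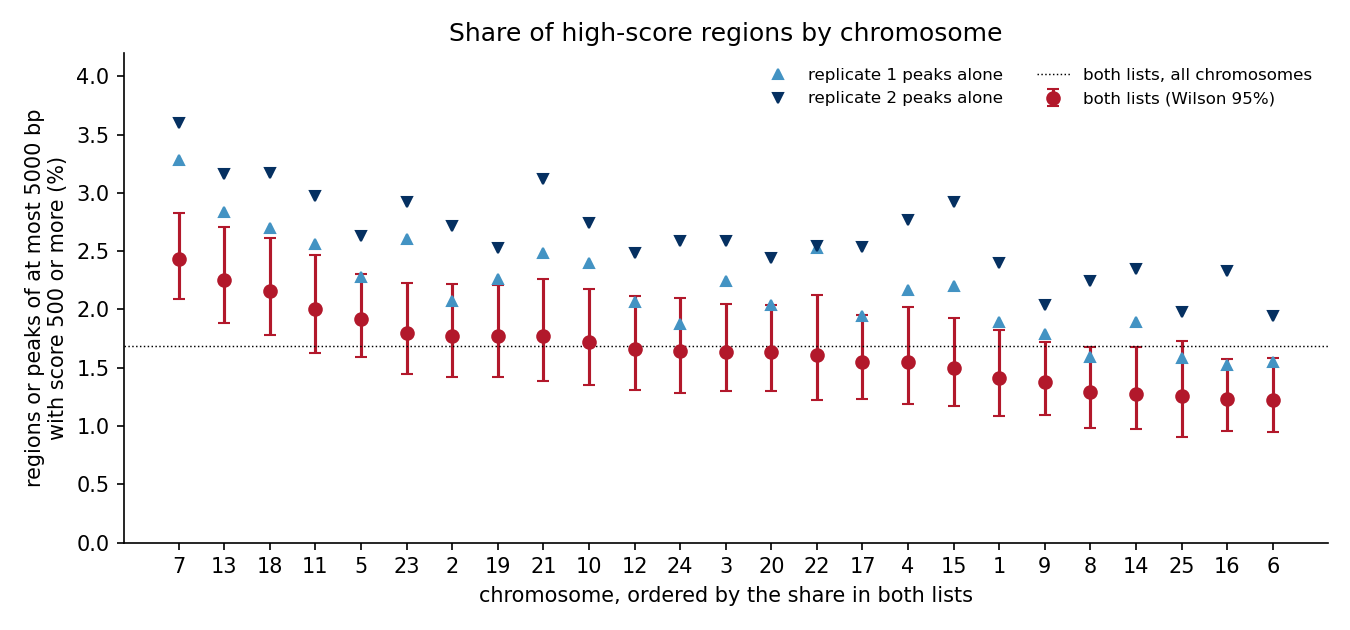
Share of joined regions of at most 5000 bp that scored 500 or more in both lists (red, Wilson 95% intervals) for each chromosome, with the share of each list's own peaks of at most 5000 bp that scored 500 or more (triangles). The dotted line is the overall share of 1.69%; chromosomes 7, 13 and 18 lie above it with their whole interval, and the order of the single lists follows the red points loosely.

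Counted by length, chromosome 7 again stood first with 2.11 members per Mb, close to chromosome 13 with 2.11 and chromosome 18 with 2.02. Chromosome 4 stood last with 0.854 per Mb, although its share of 1.55% was near the overall one, because it had few regions of any score. Up to 28 Mb of chromosome 4, 52 of 3202 regions were members (1.62%, 1.24 to 2.12%). Beyond 28 Mb, 1 of 215 was (0.465%, 0.0822 to 2.59%), an interval that includes the 1.69% found over the rest of the genome. That member, at 62042064 to 62045148, scored 525.9 and 639.5. The boundary was taken from earlier results of these data.

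Chromosomes 22 and 23 were unremarkable in share, with 49 members (1.61%) and 82 members (1.80%). Within 2 Mb of a chromosome end, 139 of 8903 regions were members (1.56%, 1.32 to 1.84%), which includes the overall share.

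In windows of 1 Mb the members were unevenly spread. Windows hold few members each and chromosomes many, so the unevenness of the 2 scales cannot be compared directly. Of 1369 windows, 672 held a member and 697 held none. The 107 windows with 5 or more members held 831 of them (45.2%). These windows were picked by that count, and their share of all regions of at most 5000 bp was not computed. Spearman's rho between members and regions of at most 5000 bp across windows was 0.64. Members were 0.675% of the regions of at most 5000 bp in windows with 2 to 51 such regions, 0.769% in windows with 52 to 77, 1.33% in windows with 78 to 106, and 2.62% in windows with 107 to 243. Windows rich in 5hmC regions thus held a larger proportion of members as well as a larger number.

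The highest number in a window was 19, found on chromosome 7 from 28 to 29 Mb, chromosome 11 from 22 to 23 Mb and chromosome 18 from 17 to 18 Mb. These were 11.5% of 165 regions on chromosome 7, 7.82% of 243 on chromosome 11 and 13.3% of 143 on chromosome 18. In the chromosome 7 window, replicate 1 scores ran from 501.2 to 1211.4 with a median of 705.3, and replicate 2 scores from 518.8 to 1584.4 with a median of 890.0. The chromosome 18 window had medians of 729.3 and 759.0, and the chromosome 11 window 617.0 and 669.2. Replicate 1 was the higher in 5, 6 and 7 of the 19 members on chromosomes 7, 18 and 11.

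Most of the chromosome 7 window's members were packed into 1 stretch. From 28431894 to 28506204, 74.3 kb in length, 12 members lay close together, 1 of them alone and the rest in 3 runs, among 22 joined regions in all, none wider than 5000 bp. Members covered 52.6% of the stretch and all joined regions 74.5%. The 12 members scored 525.5 to 1211.4 in replicate 1 (median 765.7) and 722.9 to 1584.4 in replicate 2 (median 899.0), and 9 of the 12 were higher in replicate 2. On the whole of chromosome 7, 12 of 78 windows held 5 or more members and accounted for 106 of its 163, against 107 of 1369 such windows over the genome. These windows were picked by their member count, on the chromosome of the highest share, so the choice itself favours such an excess. Their share of the chromosome's regions of at most 5000 bp was not computed. A member was found in 42 of the 78 windows, against 672 of 1369.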

How the data were processed

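The 2 lists of peaks from 5hmC captures of 48 hours post fertilisation zebrafish hearts were analysed. Per the labels' protocols, adapters were trimmed, BWA placed the reads on the genome, and each library was sequenced to about 30M reads. The submitters' processing notes name the danRer7 build. The deposited files give each peak's start, end and score; peak names begin with MACS, while the version of the caller, its settings and any use of the inputs are not stated in those sources. Peaks were called for each capture separately.

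Peaks were joined, counted and measured with pandas 2.3.3, numpy 2.4.6 and scipy 1.17.1 in Python 3.11.15, and plotted with matplotlib 3.10.9. Where a region held several peaks of a list, the highest score was used. Coordinates count from 1. The functions were tested on simulated data. The members, the neighbour and width measures and the regions named were chosen with earlier results of these data known; the named regions are those at the extremes of score rank, width, neighbours, gap, score ratio and threshold, the closest pairs, and the extreme chromosomes and windows. The runs of 5, the chromosome 7 stretch, the long chains and the picks by 1 list were added afterwards. Alternatives covered the threshold, the overlap, joining distance, width limit, neighbour definition, chromosome 4 and each list alone. Base composition and gene features were not analysed, since no danRer7 genome was used here.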

Additional observations from a re-analysis of the deposited data

How the results depend on the processing

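Of 56 alternative values, 17 stayed near the reported one and 39 moved, where near means within 1.5 times for the number of members, within the Wilson interval for agreement of scores and edges, and within 1 SD between the lists for the rest; that SD is small for the share with a neighbour (0.0705 points), so all 13 of its alternatives moved. Members were wider than the other compact regions under all 10 settings for width and more often had a neighbour under all 14 settings for neighbours. A threshold of 400 gave 3588 members, a median width of 2702 bp, scores within 1.5-fold in 87.6% and a neighbour in 95.04%. A threshold of 750 gave 416 members, 3566.5 bp, 93.3% within 1.5-fold, both edges within 200 bp in 73.2%, a neighbour in 96.9%, and a ratio of the highest to the lowest chromosome share of 4.82, with chromosome 13 first in place of 7. The top 2% of each list (scores from 536.3 and 583.2) gave 3129.5 bp, a neighbour in 96.4% and a chromosome ratio of 2.66. With peaks shared only at 50% overlap of each, the values were edges in 63.1% and a neighbour in 95.2%. Joining peaks within 500 bp gave 1179 members, 3064 bp, 93.5% with a neighbour and a ratio of 2.51. A limit of 3000 bp gave 926 members, 2301 bp, 93.1% within 1.5-fold, edges in 79.5%, a neighbour in 95.03% and a ratio of 3.51; a limit of 10000 bp gave 3403 bp, 86.4% within 1.5-fold and a neighbour in 96.0%. Each list alone gave 3187 to 3841 peaks, median widths of 2607 to 2683 bp, a neighbour in 97.4 to 97.5%, and chromosome ratios of 1.86 to 2.15. Neighbours within 2 kb were found for 82.9% of members and within 10 kb for 98.7%; peaks of either list as neighbours gave 98.9%, and neighbours of at most 5000 bp 94.6%. Members per Mb gave a chromosome ratio of 2.47. Chromosome 7 had the highest share in 9 of 10 settings, whereas chromosome 6 had the lowest in 4, so the low end has no settled order. The causes of these shifts were not tested beyond what each setting removes by construction. Since depth is not in the lists, a score below 500 is not shown to mean less 5hmC. No paired analysis was possible because the captures are 1 group and, of the inputs that share their numbers, no values were at hand to pair them with.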
